A study of Homo sapiens with 15 samples.

Results

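Adhesion molecules of the immunoglobulin superfamily and the ligands and receptors of axon guidance form the neural surface programme examined here. The set was a named list of 45 genes, all found among the 58302 genes of the deposited tables. It was chosen by family, with earlier results of these data known. It holds the L1 family, the NCAM genes, the contactins and contactin-associated proteins, semaphorins, plexins and neuropilins, the Slit, Robo and netrin systems, and Reelin with its adaptor DAB1. The study sequenced RNA from prostate cancer cells to follow neuroendocrine-like differentiation and the part of the transcription factor Pax5 in it, with 15 libraries labelled for 5 groups of 3. Tables of the 3 C4-2B libraries were used, and the DKD and ER groups, each with scrambled control or siRNA against Pax5, were not analysed here. C4-2B is an established prostate adenocarcinoma line of the LNCaP lineage, labelled wild type, with no treatment labelled, and grown in RPMI with fetal bovine serum. It is the parental state from which the study derived enzalutamide-resistant neuroendocrine-like cells, so the values below describe the starting point of that change and no contrast between conditions.

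Growing axons read their surroundings through surface adhesion molecules and guidance receptors. Adhesion molecules such as L1CAM and NCAM1 hold membranes together by binding copies of themselves or of each other, and contactins do so from a lipid anchor in complex with the contactin-associated proteins. Guidance ligands, among them semaphorins, Slits and netrins, attract or repel through plexins with neuropilins, Robo receptors, and DCC, neogenin or the UNC5 proteins. Many of these genes also act outside the nervous system, in vessels, immune cells and epithelia, and NCAM1, also called CD56, is a clinical marker of neuroendocrine tumours.

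Levels are given as TPM (a length-scaled share of all transcripts), which divides a gene's count by its exon length and scales each library to the same sum, so that genes can be set beside each other. The libraries held between 44992971 and 49569026 counts in genes. In these libraries the luminal markers KLK3, KLK2, TMPRSS2, KRT8 and KRT18 stood between 197 and 1988 TPM on average, and the neuroendocrine markers CHGA and SYP at 1.38 and 1.31 TPM. Most reported markers of other cells were low. The leukocyte gene PTPRC had 2 counts in all, the stromal genes COL1A2 and DCN and the Schwann cell gene S100B had 0, the endothelial PECAM1 averaged 0.0396 TPM, and the exceptions were VWF at 2.91 and COL1A1 at 7.09 TPM. Whether other cells added to the levels of the guidance genes was not tested. In bulk RNA, fewer cells with a transcript and less transcript per cell cannot be told apart.

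To understand how much of this neural programme the adenocarcinoma cells transcribed, members with at least 1 TPM in every library were counted, a level called expressed below. There were 22 such members of 45, or 48.9%, beside 61.2% of the 19708 protein-coding genes of the table. At 10 TPM or more in every library stood 11 members, or 24.4%, beside 43.4% of protein-coding genes. The other 23 members were spread over the low range, with 10 averaging between 0.1 and 1 TPM, 9 averaging under 0.1 TPM with at least 1 count, and 4 with 0 counts in every library. Genes with 0 counts made up 8.89% of the members and 12.6% of protein-coding genes. The median member averaged 0.809 TPM, beside 5.88 TPM for the median protein-coding gene. Among the expressed alone, the medians were 10.5 and 22.2 TPM.

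**Figure D1:**
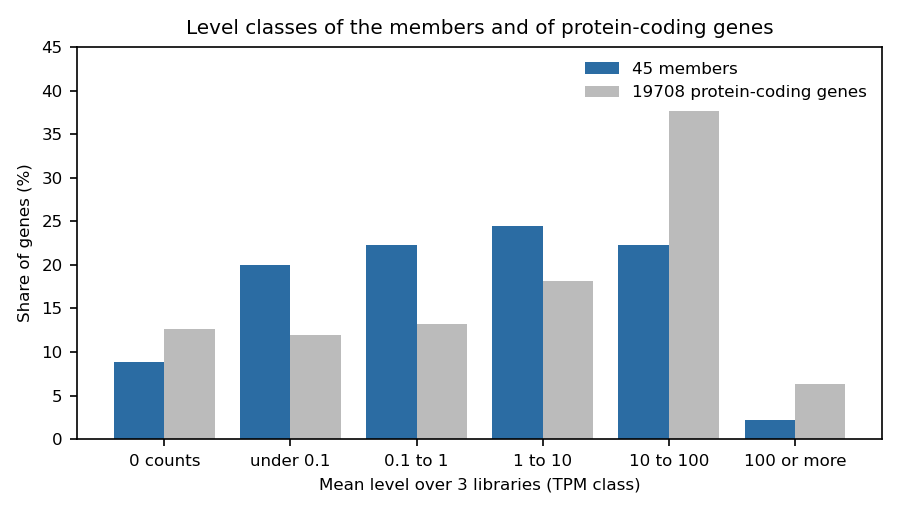
Share of genes (%) in classes of mean level over the 3 C4-2B libraries (TPM), with blue bars for the 45 members and grey bars for the 19708 protein-coding genes. The members hold a larger share than protein-coding genes in each class between a single count and 10 TPM, and a smaller share above 10 TPM, where 24.4% of members and 43.4% of protein-coding genes stood in every library.

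A few genes carried most of the signal. The 45 levels summed to 526 ± 2.81 TPM (SD, n = 3), and the 5 highest members, PLXNB2, NCAM2, SEMA3C, PLXNA1 and NEO1, held 69.6% ± 0.156 of that sum (SD, n = 3). The 6 plexins alone held 52.5% of it, and the 4 L1 family genes 0.270%. Ordered by mean level, 15 of the 44 neighbouring pairs had library ranges that did not overlap, and 29 overlapped. The order was clear from PLXNB2 down to NEO1, while NEO1, PLXNB1 and SEMA3F overlapped in turn. Below NFASC every neighbouring pair overlapped, so no order is given there.

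**Figure D2:**
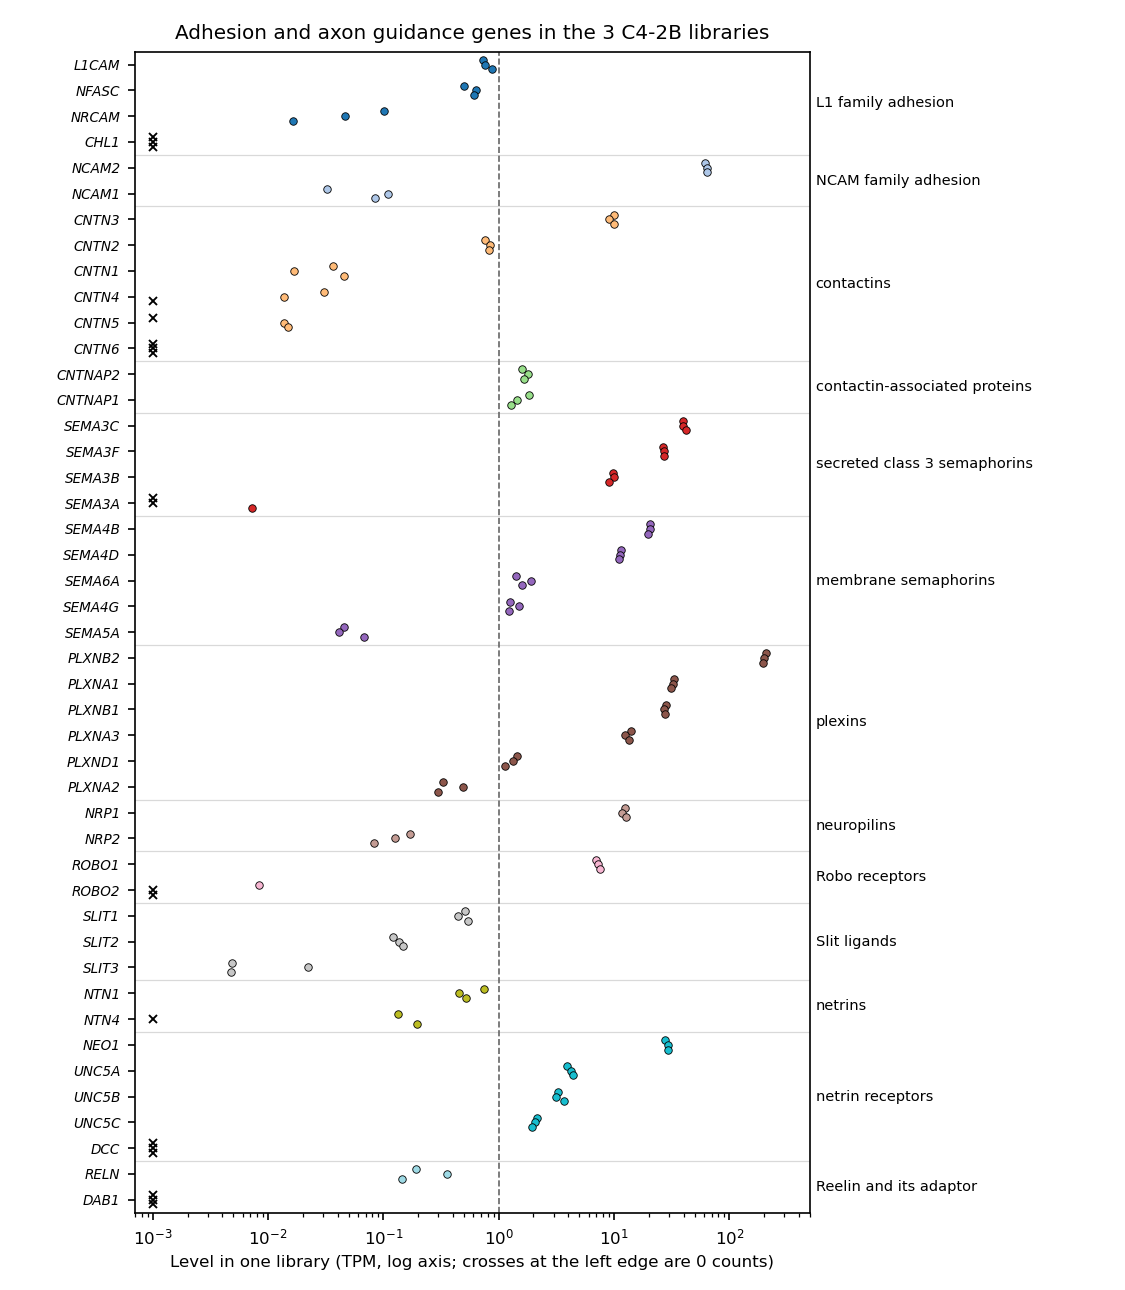
Level of each member in each of the 3 C4-2B libraries (TPM, log axis), grouped by role, with a dashed line at 1 TPM and crosses at the left edge for 0 counts. In most families a single gene or a few genes lie to the right of the line, such as NCAM2 between 61.6 and 64.0 TPM, while a close relative lies far to the left, such as NCAM1 between 0.0325 and 0.109 TPM.

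To show the sequence at the starts of these genes, promoter windows were taken from RefSeq (GRCh38.p14), each running from 250 bases before to 50 bases after a transcript start, with the most upstream window kept where a gene had several. Windows were found for 39 members. The following 6 are printed 5′ to 3′ on the gene's own strand, with each CpG in capitals, since CpG content is compared between expressed and other members after them. PLXNB2 (chr22:50301620-50301919, minus strand) is the member with the highest level, and NEO1 (chr15:73051652-73051951, plus strand) and DCC (chr18:52339947-52340246, plus strand) are a pair of related receptors at opposite ends of the range, chosen for that after their values were seen. NFASC (chr1:204828402-204828701, plus strand) and NRCAM (chr7:108456387-108456686, minus strand) are genes at which the study examined Pax5 binding, and DAB1 (chr1:58546677-58546976, minus strand) is a gene the study names as a Pax5 target and has 0 counts here.
PLXNB2: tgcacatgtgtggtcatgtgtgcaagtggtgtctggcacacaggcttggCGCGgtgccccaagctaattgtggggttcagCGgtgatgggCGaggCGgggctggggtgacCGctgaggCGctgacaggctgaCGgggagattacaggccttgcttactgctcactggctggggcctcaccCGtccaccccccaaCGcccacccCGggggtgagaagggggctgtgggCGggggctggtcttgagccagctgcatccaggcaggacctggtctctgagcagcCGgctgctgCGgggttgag
NEO1: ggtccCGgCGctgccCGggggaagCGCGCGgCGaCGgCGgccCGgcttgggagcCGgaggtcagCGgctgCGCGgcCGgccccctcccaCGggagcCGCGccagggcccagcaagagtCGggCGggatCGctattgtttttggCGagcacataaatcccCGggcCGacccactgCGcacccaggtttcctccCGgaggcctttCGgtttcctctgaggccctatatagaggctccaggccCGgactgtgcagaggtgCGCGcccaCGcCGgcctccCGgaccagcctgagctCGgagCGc
DCC: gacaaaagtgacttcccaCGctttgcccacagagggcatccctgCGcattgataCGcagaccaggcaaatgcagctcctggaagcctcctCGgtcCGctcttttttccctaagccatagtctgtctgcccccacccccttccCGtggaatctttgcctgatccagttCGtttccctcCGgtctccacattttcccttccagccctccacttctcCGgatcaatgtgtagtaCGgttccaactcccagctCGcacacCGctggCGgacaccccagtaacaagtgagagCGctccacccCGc
NFASC: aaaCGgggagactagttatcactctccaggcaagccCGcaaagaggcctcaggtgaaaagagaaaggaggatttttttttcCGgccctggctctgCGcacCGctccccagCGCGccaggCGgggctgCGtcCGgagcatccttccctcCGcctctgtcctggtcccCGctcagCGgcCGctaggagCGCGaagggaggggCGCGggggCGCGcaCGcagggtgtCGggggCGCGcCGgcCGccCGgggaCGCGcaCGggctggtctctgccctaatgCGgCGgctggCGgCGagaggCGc
NRCAM: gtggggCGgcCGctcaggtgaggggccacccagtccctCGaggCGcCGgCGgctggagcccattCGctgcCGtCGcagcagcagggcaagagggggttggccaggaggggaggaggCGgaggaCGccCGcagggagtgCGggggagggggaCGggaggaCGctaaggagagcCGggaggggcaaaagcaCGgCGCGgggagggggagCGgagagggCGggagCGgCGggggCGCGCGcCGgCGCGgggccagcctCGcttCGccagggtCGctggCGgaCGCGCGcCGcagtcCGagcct
DAB1: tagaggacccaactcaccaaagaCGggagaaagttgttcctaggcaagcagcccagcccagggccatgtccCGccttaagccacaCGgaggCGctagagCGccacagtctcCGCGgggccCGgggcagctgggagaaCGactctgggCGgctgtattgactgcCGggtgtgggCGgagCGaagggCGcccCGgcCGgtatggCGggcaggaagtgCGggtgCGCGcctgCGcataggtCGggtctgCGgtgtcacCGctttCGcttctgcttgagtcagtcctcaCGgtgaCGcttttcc

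CpG counts in the printed windows did not follow the levels of the genes. Of the 4 that were not expressed, NRCAM holds 38 CpGs in 300 bases, NFASC 35, DAB1 27 and DCC 15. Of the 2 that were expressed, NEO1 holds 35 and PLXNB2 14. Over all windows, the 19 expressed members had a median of 25 CpGs, ranging from 2 in SEMA3C to 54 in PLXNA1. The other 20 members had a median of 27, ranging from 6 in CNTN1 and CNTN6 to 52 in RELN. Among the 15289 protein-coding genes with a window, the medians were 26 for expressed genes and 8 for the others. The low members thus had CpG counts near those of expressed genes, unlike low protein-coding genes as a whole, and no test was made of this difference. The start of 11 of the 39 windows lies over 1000 bases from the gene start in the deposited annotation, 5958 bases for PLXNB2, 148847 for NCAM2 and 404185 for ROBO2, so other starts may be in use. Over the 28 nearer windows the medians were 23.5 CpGs in 12 expressed members and 28 in 16 others, an alternative chosen after seeing the data. GC content had medians of 72.3% in expressed and 66.0% in other members, beside 65.3% and 56.0% in protein-coding genes split likewise. The core of the PAX5 recognition sequence, GCGTGAC, was searched for on both strands, and 0 of 39 member windows held it, beside 3.23% of the protein-coding windows. These letters can lie outside a window of this size, so nothing follows about binding.

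**Figure D3:**
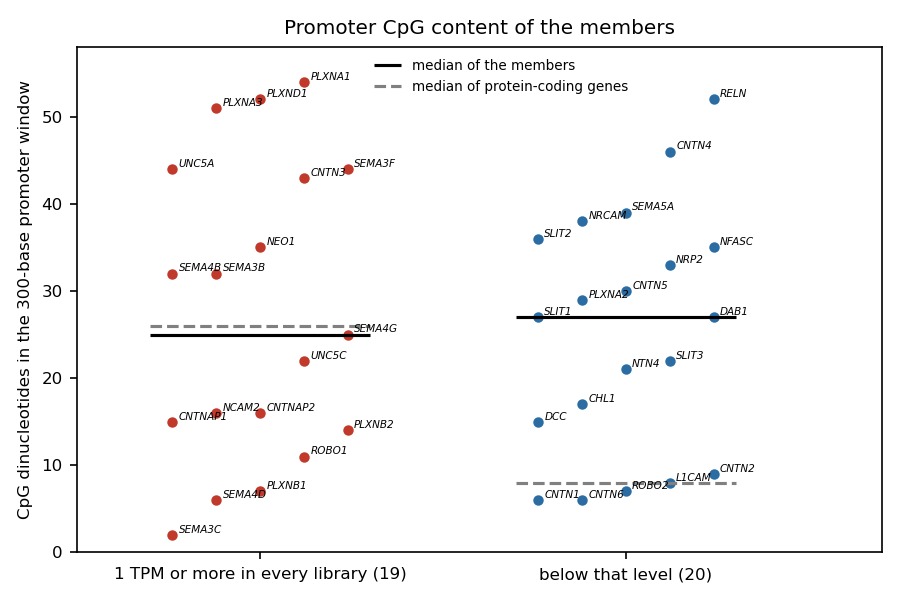
Number of CpG dinucleotides in the 300-base promoter window of each of 39 members, split into 19 at 1 TPM or more in every library (red) and 20 below that level (blue), with solid lines at the members' medians and dashed lines at the medians of protein-coding genes in the same split. The members' medians are 25 and 27, while those of protein-coding genes are 26 and 8.

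Of the L1 family, 0 of 4 genes were expressed. These proteins carry immunoglobulin and fibronectin domains outside the cell and bind ankyrin inside it. L1CAM, the founding member (chrX:153861514-153909223), was at 0.725, 0.753 and 0.876 TPM, just under the threshold in all libraries. NFASC, neurofascin of the axon initial segment and the node of Ranvier (chr1:204828651-205022822), was at 0.503, 0.629 and 0.605 TPM, and L1CAM exceeded it 1.35-fold with ranges that did not overlap. Before division by exon length the order was the reverse, with 558 counts for NFASC and 263 for L1CAM. Their exon lengths were 21271 and 7423 bases, so this order depends on the lengths used. NRCAM, which clusters with neurofascin at nodes (chr7:108147623-108456717), was at 0.101, 0.0460 and 0.0165 TPM from 20 counts in all. The NRCAM values spread over a wide range on few reads, and the exact Poisson 95% interval of the 20 counts ran from 12.2 to 30.9. Without the first library NRCAM averaged 0.0313 TPM in place of 0.0545. CHL1, the close homologue of L1 (chr3:196596-409417), had 0 counts, an upper limit of 0.00560 TPM, the level that 3 counts over the 3 libraries would give. L1CAM was 140-fold above that limit. The anchors that these tails bind were unequal too, with ANK3, ankyrin-G, at 58.1 ± 0.823 TPM and ANK2, ankyrin-B, at 0.213 ± 0.0267 TPM (SD, n = 3).

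The NCAM genes stood far apart. NCAM2 (chr21:20998315-21543329), a neural cell adhesion molecule known best from olfactory axons, was at 61.6, 63.4 and 64.0 TPM, from 7478, 8451 and 7926 counts. NCAM1 (chr11:112961247-113278436) was at 0.0325, 0.109 and 0.0850 TPM, from 6, 22 and 16 counts. All libraries agreed on which paralogue was high. NCAM2 exceeded NCAM1 836-fold in mean TPM, and 584- to 1894-fold in single libraries. NCAM2 was at the 88.6th percentile of protein-coding genes and NCAM1 at the 23.0th. Of the NCAM1 exon bases, 5.52% also lie under antisense genes with 0 counts, and reads there were counted for neither.

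Of the 6 contactins, only CNTN3 was expressed under this definition. It was at 9.91, 9.11 and 10.1 TPM (chr3:74262568-74521140). CNTN2, also called TAG-1 (chr1:205042937-205078284), was 12.0-fold lower in mean TPM, at 0.756, 0.841 and 0.830 TPM. The gap was smaller before division by exon length, with 651 counts for CNTN2 and 2235 for CNTN3. Their exon lengths were 17785 and 5109 bases, so the size of this ratio depends on the lengths used. The other contactins were close to absent from the counts: CNTN1 had 11 counts, CNTN4 had 6, CNTN5 had 4 and CNTN6 had 0 over the 3 libraries. CNTN3 was 294-fold higher than CNTN1 in mean TPM, with a counting interval from 165 to 590. It was 816-fold above the limit for CNTN6, the level that 3 counts over the 3 libraries would give. The partners of contactins in the axon membrane were both expressed at the threshold of 1 TPM. At 2 TPM neither was, and at 0.5 TPM CNTN2 was expressed too. CNTNAP2, Caspr2, was at 1.68 ± 0.0987 TPM (SD, n = 3). CNTNAP1, Caspr, was at 1.81, 1.43 and 1.28 TPM, and the library ranges of both genes overlapped. Exons of CCR10 and of an antisense RNA cover 12.3% of the CNTNAP1 exon bases, and reads there were counted for neither gene. On the remaining bases CNTNAP1 was at 1.64 ± 0.301 TPM (SD, n = 3).

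Secreted class 3 semaphorins, which act through neuropilins, were represented by 3 of 4 genes. SEMA3C (chr7:80742538-80922359) was at 39.6, 39.9 and 42.0 TPM. SEMA3F (chr3:50155045-50189075) was at 26.6, 27.2 and 27.3 TPM, 1.47- to 1.54-fold lower than SEMA3C within libraries. SEMA3B was at 9.78, 9.92 and 9.05 TPM. The library ranges of these 3 genes did not overlap. SEMA3A, the ligand known best for collapsing growth cones (chr7:83955777-84492724), had 1 count, and SEMA3C exceeded it 16830-fold with a counting interval from 3020 to 664600. Both lie on chromosome 7, with 4 protein-coding genes in the 3033 kb between them. Of the 5 membrane-bound semaphorins, 4 were expressed: SEMA4B at 20.3 ± 0.450, SEMA4D, also called CD100, at 11.3 ± 0.234, SEMA6A at 1.63 ± 0.250 and SEMA4G at 1.33 ± 0.153 TPM (SD, n = 3). SEMA5A had 28 counts and averaged 0.0514 TPM. For SEMA4G, other genes cover 27.4% of exon bases, 22.3% under MRPL43 on the opposite strand, and on the remaining bases its level was 1.75 ± 0.201 TPM (SD, n = 3).

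Plexins, the signalling receptors of semaphorins, were the most abundant family. PLXNB2 (chr22:50274979-50307627), a receptor for class 4 semaphorins, was at 206, 201 and 197 TPM, from 21636, 23208 and 21137 counts, at the 97.4th percentile of protein-coding genes. It alone made up 38.3% of the summed level of the members. PLXNA1 was at 33.1, 32.4 and 31.3 TPM and PLXNB1, the main receptor of SEMA4D, at 28.0, 27.3 and 27.6 TPM. These followed PLXNB2 at 6.23-fold and 7.29-fold lower levels. PLXNA3 averaged 13.3 ± 0.830 TPM and PLXND1 1.31 ± 0.157 TPM (SD, n = 3). PLXNA2 (chr1:208022242-208244320) was not expressed, at 0.330, 0.492 and 0.295 TPM, and was the exception among the 6. Neuropilins, the co-receptors that bind class 3 semaphorins, divided in the same manner as the NCAM genes. NRP1 (chr10:33177492-33336262) was at 12.4, 11.8 and 12.8 TPM and NRP2 (chr2:205681990-205798133) at 0.169, 0.127 and 0.0828 TPM. NRP1 exceeded NRP2 97.9-fold in mean TPM, and 73.7- to 154-fold in single libraries.

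Robo receptors and their Slit ligands showed a receptor with little ligand. ROBO1 (chr3:78597240-79767815) was at 7.02, 7.26 and 7.56 TPM. Its neighbour ROBO2 (chr3:75906695-77649964) had 2, 0 and 0 counts, and ROBO1 exceeded it 2638-fold with a counting interval from 730 to 21780. No protein-coding gene lies in the 947 kb between them. The ligands SLIT1, SLIT2 and SLIT3 averaged 0.497, 0.134 and 0.0105 TPM, so 0 of 3 were expressed. SLIT3 rests on 1, 5 and 1 counts, and without the second library it averaged 0.00479 TPM. Together the Slits summed to 0.642 ± 0.0479 TPM (SD, n = 3), beside 7.28 ± 0.264 TPM for both Robo genes.

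In the netrin system 0 of 2 listed ligands and most receptors were expressed. NTN1, netrin-1, was at 0.746, 0.453 and 0.520 TPM, and NTN4, a netrin of basement membranes, had 8, 0 and 12 counts. Neither ligand reached 1 TPM in any library. Among the receptors, 4 of 5 were, all but DCC. NEO1, neogenin (chr15:73051710-73305206), was at 27.8, 29.3 and 29.3 TPM. UNC5A at 4.17 ± 0.252, UNC5B at 3.37 ± 0.302 and UNC5C at 2.06 ± 0.0911 TPM (SD, n = 3), receptors of repulsion, formed an order without overlap in TPM. Before division by exon length UNC5A had the fewest counts, 822, beside 1039 for UNC5B and 993 for UNC5C. This order therefore depends on the lengths used. DCC, the receptor of attraction and the closest relative of neogenin in the list (chr18:52340172-53535903), had no counts (0, 0 and 0), with an upper limit of 0.00505 TPM. NEO1 was 5706-fold above that limit, which is the level of 3 counts over the 3 libraries.

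Reelin, a secreted glycoprotein that positions migrating neurons, signals through lipoprotein receptors and the adaptor DAB1. RELN (chr7:103471784-103989516) was at 0.191, 0.358 and 0.145 TPM, from 35, 72 and 27 counts. The second library was the high value, and the difference between libraries did not pass the test described at the end (adjusted p = 0.194 by chi-square with TMM factors from edgeR). DAB1 (chr1:56994778-58546734) likewise had 0 counts in each library, an upper limit of 0.00880 TPM. Other genes' exons cover 5.03% of its exon bases, among them OMA1 on the same strand with 4575 counts, where reads would have been counted for neither. The receptors VLDLR and LRP8, named after their values were seen, were at 12.8 ± 0.161 and 15.5 ± 0.229 TPM (SD, n = 3), and all 6 listed Reelin receptors, kinases and Crk adaptors were expressed, led by the adaptors CRKL at 101 and CRK at 74.9 TPM and the kinase SRC at 24.5 TPM. The cells thus held transcripts of these genes without detectable DAB1 at this depth.

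To set ligands beside receptors, 28 listed pairs of members were read off together, whether or not the partners bind each other directly. Both partners were expressed in 5 pairs, SEMA3B with NRP1, SEMA3C with NRP1, SEMA3C with PLXND1, and SEMA4D with PLXNB1 and with PLXNB2. PLXNB1 was 2.44-fold and PLXNB2 17.8-fold above SEMA4D in mean TPM, while NRP1 was at 0.305 and PLXND1 at 0.0323 of the level of SEMA3C. In 12 pairs the second partner alone was expressed, among them SLIT1, SLIT2 and SLIT3 with ROBO1 and NTN1 with NEO1 and the 3 UNC5 receptors. In 4 pairs the ligand alone was expressed, including SEMA3F, whose preferred co-receptor NRP2 averaged 0.126 TPM. Neither partner was expressed in 7 pairs. With CPM of at least 1 in place of TPM, 9 pairs had both partners expressed, and with thresholds of 0.5 and 2 TPM there were 7 and 4. Several pairs share a gene, so these counts are not independent of each other.

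**Figure D4:**
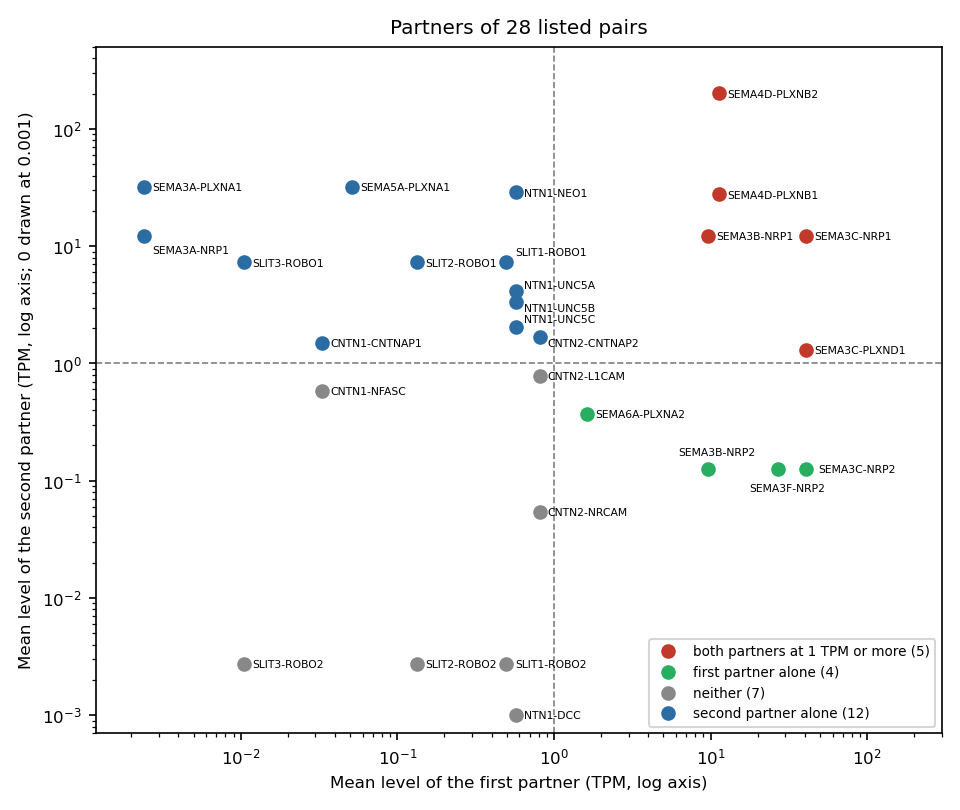
Mean level over the 3 C4-2B libraries (TPM, log axes) of the first partner (the ligand, or the contactin in the last 5 listed pairs) against that of the second partner in 28 listed pairs, with dashed lines at 1 TPM and 0 drawn at 0.001. The 5 red pairs have both partners above the line, the 12 blue pairs lie at the upper left with the second partner alone, and the 4 green pairs lie at the lower right.

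Among close relatives outside the list, 6 of 11 other semaphorins were expressed, led by SEMA4A at 20.0, SEMA4C at 9.12 and SEMA3G at 8.68 TPM. Of 3 other plexins, PLXNB3 was expressed at 28.4 ± 0.665 TPM (SD, n = 3), PLXNC1 averaged 1.19 TPM and was below 1 TPM in the second library, and PLXNA4 averaged 0.0186 TPM. Exons of other genes cover 20.4% of the PLXNB3 exon bases, and its level on the remaining bases was not computed. Of 10 other Robo, netrin and contactin-associated genes, 4 were expressed, led by ROBO3 at 9.03, NTN3 at 6.96 and NTNG1 at 5.44 TPM. Among the netrin genes NTN3 had the highest mean, at 8.58, 6.77 and 5.52 TPM in the single libraries. Its range overlapped that of NTNG1, at 5.92, 5.23 and 5.16 TPM, and neither gene is a member of the list.

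The members are long genes, and the longer of them tended to have the lower levels. From first to last base the median member spanned 213 kb, beside 26.9 kb for protein-coding genes. Expressed members had a median of 80.4 kb and the others 317 kb, whereas among protein-coding genes the expressed had the longer median, 31.0 kb against 19.3 kb. Of 14 members up to 100 kb, 12 were expressed, or 85.7%, beside 61.1% of protein-coding genes of that size. Between 100 and 500 kb, 7 of 19 were expressed, or 36.8%, beside 63.8%. Above 500 kb, 3 of 12 members were expressed, or 25.0%, beside 39.2% of 309 protein-coding genes. Those 3 were NCAM2 at 545 kb, ROBO1 at 1171 kb and CNTNAP2, the longest member, at 2305 kb. Spearman's rho of span and mean TPM was -0.55 over the 45 members and 0.10 over protein-coding genes, a description across genes of the same libraries that share their families and base composition.

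**Figure D5:**
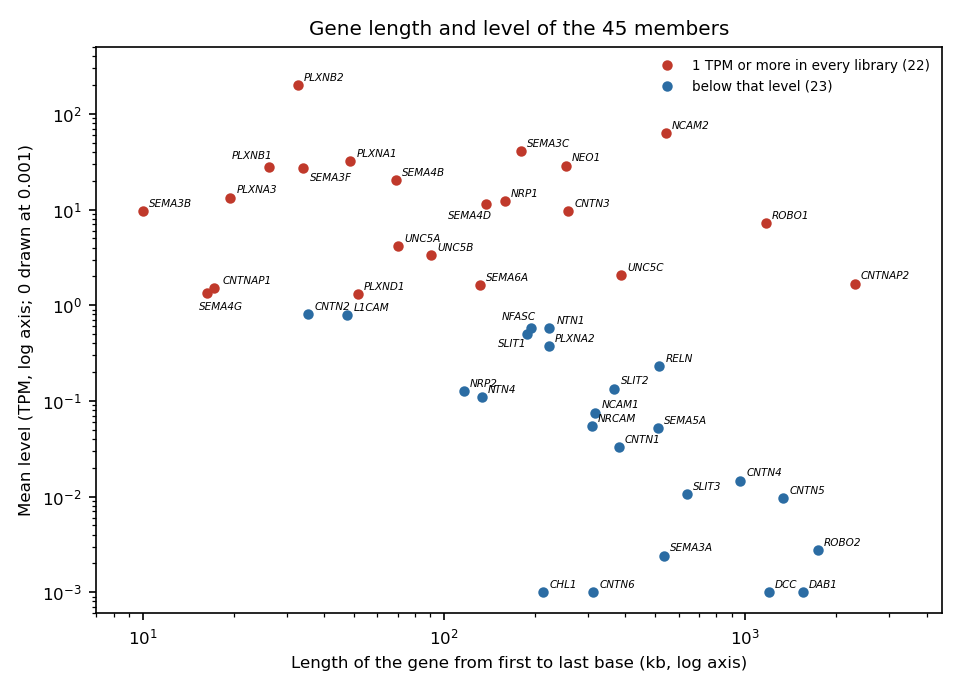
Length of each of the 45 members from first to last base (kb, log axis) against its mean level over the 3 C4-2B libraries (TPM, log axis, 0 drawn at 0.001), red for the 22 at 1 TPM or more in every library and blue for the 23 below. NCAM2, ROBO1 and CNTNAP2 are the red points above 500 kb, where the other 9 members lie below 1 TPM.

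Several members are neighbours on a chromosome, and chromosome 3 carries 11 of the 45. At its short-arm end CHL1, CNTN6 and CNTN4 follow each other with no other protein-coding gene in the gaps of 683 and 695 kb, and had 0, 0 and 6 counts. Further along, SEMA3F and SEMA3B lie 78.5 kb apart and were both expressed at the levels given above. ROBO2, with its 2 counts, is followed by the expressed ROBO1, and 2 other protein-coding genes lie in the 1386 kb between CNTN3 and ROBO2. On chromosome 1, NFASC and CNTN2 are 20.1 kb apart and averaged 0.579 and 0.809 TPM.

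To ask whether the libraries differed from each other in these genes, each gene's 3 counts were compared with the library sizes by a chi-square test scaled with TMM from edgeR and divided by 2 because both mates of a read pair were counted. Of the 32 members with at least 30 counts, 0 passed a Benjamini-Hochberg adjusted p of 0.05 and 5 had an unadjusted p under 0.05, and with DESeq2 size factors the counts were also 0 and 5. Among all 22229 genes tested, 176 passed, or 0.792%, and 2503 had an unadjusted p under 0.05. PLXNB2 came closest among the members, with an adjusted p of 0.0725, and its counts differed by little in size, since its coefficient of variation in TPM was 2.12%. Without the division, 6 members passed, PLXNA1, PLXNA2, PLXNA3, PLXNB2, RELN and SEMA6A, or 6 of 32 beside 17.3% of all genes. Without the second library PLXNB2 alone passed among 31 members tested, beside 1.11% of the 20178 genes tested. Coefficients of variation of expressed members ran from 1.23% in SEMA3F to 18.3% in CNTNAP1, with a median of 4.16% beside 3.44% for expressed protein-coding genes. The labels do not say whether the replicates were separate cultures, so these spreads may be technical.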

How the data were processed

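RNA-seq of C4-2B cells was analysed in 3 libraries, grouped by their titles. Total RNA had been depleted of ribosomal RNA and made into stranded libraries. Per the submitters' processing notes and file headers, the authors aligned read pairs to GRCh38 with STAR 2.7.0f and deposited raw counts, made with featureCounts 1.6.3 over genes of Ensembl release 90. The deposited command set neither strand nor fragment counting, so antisense reads and both mates were counted, and reads over exons of more than 1 gene were left out. Gene length, an other value the authors deposited beside the counts, is the union of exons.

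TPM was computed here from counts and lengths over all genes of a table. Symbols and gene types came from GENCODE release 44, and coordinates from the deposited tables, counted from 1. A gene counted as expressed at 1 TPM or more in every library. For 0 counts the limit is the TPM of 3 counts over the libraries. Poisson intervals are exact, at 95%, and like the limits cover counting error only. They are too narrow, since mates and PCR copies are not independent molecules. With 1 group, levels are described without a test. Libraries were compared by chi-square with TMM factors from edgeR 4.0.16 in R 4.3.3, with DESeq2 1.42.0 size factors as an alternative, for genes with at least 30 counts, and this was tested on simulated data. Promoter sequences are from RefSeq. The members, the lists of pathway genes, pairs and markers, and the test were chosen with earlier results of these data known. All members were to be named, with the 3 highest of each class of other pathway genes and all markers, of which some are not reported here. Other units, thresholds, exon lengths, denominators, scalings and count minimums were tried, and each library was left out in turn.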

Additional observations from a re-analysis of the deposited data

How the results depend on the processing

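Leaving out each library in turn left the number of expressed members at 22 and of expressed pairs at 5, moved the other pathway genes from 56 to between 56 and 58, kept the share of the 5 highest members between 69.5 and 69.6%, the median member between 0.799 and 0.835 TPM, and gave between 0 and 1 members differing between libraries (PLXNB2 without the second library). Expressed members numbered 27 with CPM in place of TPM (adding L1CAM, NFASC, CNTN2, PLXNA2 and SLIT1). They numbered 25 at 0.5 TPM (adding L1CAM, NFASC and CNTN2). At 2 TPM they numbered 16, without CNTNAP1, CNTNAP2, SEMA4G, SEMA6A, PLXND1 and UNC5C. Pairs with both partners expressed numbered 9 with CPM. Without division of the chi-square 6 members differed between libraries. The share of the 5 highest was 68.1% with CPM and 69.3% on exon bases under no other gene. The median member was at 2.93 CPM, and at 1.17 TPM when the 10 most abundant and the mitochondrial genes were left out of the denominator, which multiplied every TPM by 1.45 and added L1CAM and CNTN2 to the expressed. CPM does not divide by length, and so ranks long transcripts higher. On exon bases under no other gene 11 members moved by more than their SD. Of these, only SEMA4G and SEMA3F share exon bases with other genes. The rest, among them NCAM2 and PLXNB2, share none, and their levels fell because TPM scales each library to the same sum. The count is therefore not a number of members affected by overlap. No paired analysis was possible because numbers in the titles join C4-2B only to groups that were not analysed here.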

Other observations

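The ephrins and Eph receptors, a guidance system in which both ligand and receptor sit in membranes, were abundant beside the members. All 8 ephrins were expressed, led by EFNA5 at 224 ± 4.16, EFNA1 at 123 ± 3.41 and EFNA4 at 45.2 ± 1.87 TPM (SD, n = 3), and summed to between 478 and 501 TPM in single libraries, close to the 526 TPM of the 45 members. EFNA3 was next at 36.0 ± 3.12 TPM (SD, n = 3). Exons of other genes cover 15.0% of the EFNA4 and 44.7% of the EFNA3 exon bases, so the order of these 2 is uncertain. Of 14 Eph receptors, 9 were expressed, led by EPHB4 at 52.9 ± 0.919, EPHA3 at 40.8 ± 0.930 and EPHB3 at 23.6 ± 0.554 TPM (SD, n = 3).

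Of 24 transducers that carry guidance signals to the cytoskeleton, 21 were expressed, led by RHOA at 429, RAC1 at 170 and MICAL1, an enzyme of plexin signalling, at 108 TPM. RHOA and RAC1 have processed copies in the genome, so their counts are uncertain. Over all 78 other pathway genes, 56 were expressed, 21 of them transducers. Of the 45 members 22 were expressed, or 48.9%, and of protein-coding genes 61.2%. That last share is also the background for each class count of other pathway genes above.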
